A study of Mus musculus with 5 samples.

Results

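IgG1 plasma cells, antibody-secreting cells whose heavy chain transcripts come mainly from the gamma-1 constant gene Ighg1, made up 79 of 5476 cells in single-cell libraries of mouse plasma cells. They were chosen by their own counts. A cell was called IgG1 when it held at least 10 UMIs (unique molecular identifiers, each counted as 1 captured transcript) over Ighm, Ighg1, Ighg2b, Ighg2c, Ighg3, Ighe and Igha, with at least 70% of them from Ighg1. The 1166 cells called IgG2b (337), IgG2c (663) or IgG3 (166) by the same rule are referred to as other IgG cells and served as the comparison within each library.

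The cells came from unimmunized, untreated male C57Bl6/N mice aged 8 to 12 weeks, with 3 mice pooled per library and 2 rounds of sorting for high CD138 (syndecan-1) without Ly6g or CD11c. The libraries were divided by the sort for B220 (the CD45 form of B cells) and for uptake of 2NBDG, a fluorescent glucose analog. Bone marrow gave a B220-2NBDG+ library with 25 IgG1 and 59 other IgG cells. The spleen gave a B220+2NBDG+ library with 32 and 520, a B220+2NBDG- library with 10 and 408, a B220-2NBDG+ library with 7 and 110, and a B220-2NBDG- library with 5 and 69. Each group was therefore 1 library, no label says that libraries came from separate animals, and a p-value below measures the spread between these libraries.

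Class switch recombination joins a rearranged heavy chain variable segment to a constant gene downstream of Ighm and deletes the genes between them. In mouse B cells interleukin-4, acting through STAT6, directs switching to IgG1, whereas interferon gamma and the transcription factor T-bet favour IgG2c, the form that C57BL/6 mice carry in place of IgG2a. IgG1 depends largely on help from T cells, while IgG3 and part of IgG2b also arise without it. IgG1-secreting cells are found in spleen and bone marrow, and those in marrow include long-lived cells.

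The 4 gamma genes differ most in the hinge, the flexible stretch that joins the antigen-binding arms to the tail and whose cysteines bridge the heavy chains. All 4 lie on the minus strand of chromosome 12 (GRCm38, GENCODE M21); Ighg1 has the identifier ENSMUSG00000076614. The hinge is exon 2 of each, at chr12:113329844-113329882 in Ighg1, chr12:113307261-113307326 in Ighg2b, chr12:113288263-113288325 in Ighg2c and chr12:113360529-113360576 in Ighg3. The exons are shown 5′ to 3′ with in-frame cysteine codons in capitals.
Ighg1: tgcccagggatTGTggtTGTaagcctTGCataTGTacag
Ighg2b: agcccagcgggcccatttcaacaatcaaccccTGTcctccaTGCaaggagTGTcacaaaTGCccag
Ighg2c: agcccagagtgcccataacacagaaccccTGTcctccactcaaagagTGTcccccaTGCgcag
Ighg3: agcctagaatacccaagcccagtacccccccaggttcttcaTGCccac
The Ighg1 hinge exon was the shortest of the 4 at 39 bases and held 4 cysteine codons, against 4 in 66 bases of Ighg2b, 3 in 63 bases of Ighg2c and 1 in 48 bases of Ighg3.

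A 3′ library reads the end of a transcript, so what told the subclasses apart here was the end of the gene. The last 90 coding bases of each secreted form are shown because they lie next to the sequenced end. They belong to exon 4, at chr12:113328979-113329068 in Ighg1, chr12:113306392-113306481 in Ighg2b, chr12:113287392-113287481 in Ighg2c and chr12:113359668-113359757 in Ighg3. Capitals mark bases that differ from Ighg1.
Ighg1: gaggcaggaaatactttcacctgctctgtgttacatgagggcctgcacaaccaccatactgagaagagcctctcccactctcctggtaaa
Ighg2b: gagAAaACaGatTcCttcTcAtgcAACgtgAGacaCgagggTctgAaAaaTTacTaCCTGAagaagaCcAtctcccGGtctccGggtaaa
Ighg2c: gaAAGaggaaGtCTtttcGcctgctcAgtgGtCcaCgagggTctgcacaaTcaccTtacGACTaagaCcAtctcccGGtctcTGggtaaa
Ighg3: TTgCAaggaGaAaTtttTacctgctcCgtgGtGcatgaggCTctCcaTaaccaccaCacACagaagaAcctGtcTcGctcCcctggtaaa
Of these 90 bases 31 differed from Ighg1 in Ighg2b, 24 in Ighg2c and 23 in Ighg3. Over the 320 coding bases of the same exon, Ighg1 was 68.1% identical to Ighg2b, 71.2% to Ighg2c and 73.4% to Ighg3.

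The counts that chose the cells separated them widely from the rest. In the 79 IgG1 cells Ighg1 gave 75.4% to 98.8% of heavy chain UMIs, with a median of 90.7%, and a cell held 297 to 7859 heavy chain UMIs, with a median of 2267. Just inside the threshold lay a bone marrow cell at 75.4% with 2449 Ighg1 and 617 Igha UMIs, and a splenic B220+2NBDG+ cell at 79.7%. Just outside lay a splenic B220-2NBDG- cell at 46.1% with 722 Ighg1 and 798 Igha UMIs, and a splenic B220+2NBDG+ cell at 44.4% with 356 Ighg1 and 279 Ighg2b UMIs. No other cell outside the rule passed 13.8%. The 31 members below 90% were 11 in bone marrow, 18 in splenic B220+2NBDG+ and 2 in splenic B220-2NBDG- cells.

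Ighg1 UMIs were also found in cells of other classes, to a degree that differed between libraries. IgM cells, which should lack Ighg1, held a median of 10 Ighg1 UMIs in bone marrow and 12 in splenic B220+2NBDG+, and 0 in the other 3 libraries. At least 1 Ighg1 UMI was found in 98.6% of the 294 bone marrow and in each of the 441 splenic B220+2NBDG+ IgM cells, and in 31.1% to 32.9% of IgM cells in the other 3. The median IgG1 cell held 2409 Ighg1 UMIs in bone marrow and 1639 in splenic B220+2NBDG+. Median depth was 18794 UMIs per IgG1 cell and 16105 per IgM cell in bone marrow, and 11485 and 13554 in splenic B220+2NBDG+.

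The IgG1 cells carried the plasma cell transcripts that the sort implies. The 16 plasma cell markers summed to 112630 to 206255 CPM in the IgG1 cells of the 5 libraries, against 99586 to 193888 CPM in other IgG cells. CPM here means UMIs per 1000000 non-immunoglobulin UMIs, since immunoglobulin transcripts take most of a plasma cell's counts. Jchain, the chain that joins polymeric antibodies, made up most of that sum. Erythroid, mast cell and stromal markers were at 0 UMIs in all IgG1 cells, as were 9 of 12 T cell and 7 of 11 macrophage markers. The most abundant markers of those 2 lists, Cd2 and Cd68, had 10 UMIs each over the 79 cells, and the lists summed to 0 to 80.1 and 0 to 58.5 CPM in IgG1 cells, against 20.7 to 78.1 and 36.9 to 124 CPM in other IgG cells. Neutrophil, NK cell, dendritic cell and megakaryocyte lists stayed at or below 32.1 CPM in IgG1 cells of every library and 13.8 CPM in other IgG cells. The plasmacytoid dendritic cell list reached 475 to 8635 CPM in IgG1 and 1062 to 9274 CPM in other IgG cells, with 2075 of its 2282 IgG1 UMIs from Ly6c2, which plasma cells also carry. The 14 B cell markers, of which 6 were at 0 UMIs in all IgG1 cells and Cd79a was the most abundant, summed to 2500 to 3810 CPM in IgG1 cells and 2941 to 4671 CPM in other IgG cells.

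Scrublet, which scores simulated mixtures of cells, called 69 of 5476 cells doublets. Among them were 7 of 79 IgG1 cells and 11 of 1166 other IgG cells, and 5 of the 7 lay in bone marrow, where 1 of 59 other IgG cells was called. Doublets were kept, and values without them are given where they change a call. Libraries shared 11 of 5465 barcodes, none of them in an IgG1 cell. The libraries held 894 to 1296 cells, beside about 1000 per subset stated by the submitters, with medians of 9824 to 15502 UMIs per cell. The IgG1 cells amounted to 198374 non-immunoglobulin UMIs in bone marrow and 25260 to 136791 in the splenic libraries, so 3 UMIs were worth 15.1 CPM in the deepest and 119 CPM in the shallowest.

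IgG1 took a larger share of the IgG cells in the bone marrow library than in any splenic library. It was 25 of 84 IgG cells (29.8%, exact 95% interval 20.3 to 40.7) in bone marrow. In the spleen it was 32 of 552 (5.80%, 4.0 to 8.09) in B220+2NBDG+, 10 of 418 (2.39%, 1.15 to 4.36) in B220+2NBDG-, 7 of 117 (5.98%, 2.44 to 11.9) in B220-2NBDG+ and 5 of 74 (6.76%, 2.23 to 15.1) in B220-2NBDG- cells. The bone marrow interval overlapped none of the splenic ones, while the 4 splenic intervals overlapped each other. These intervals are of the Clopper-Pearson kind and, like all others here, cover counting error only. With 1 library per group there was no test between groups.

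**Figure D1:**
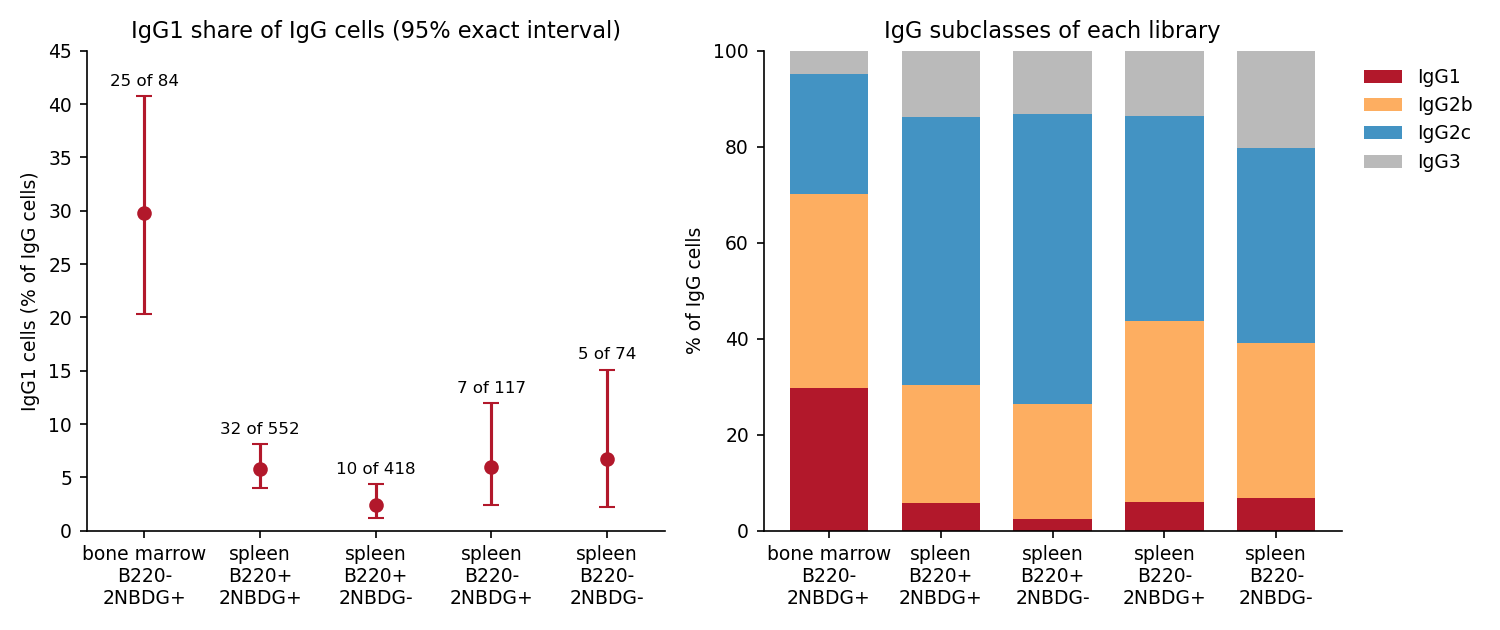
Left, IgG1 cells as a percentage of IgG cells in each library (points) with 95% exact binomial intervals (bars) and cell numbers above. Right, the percentage of IgG cells of each subclass, stacked to 100; IgG1 is 29.8% in bone marrow and 2.39% to 6.76% in the splenic libraries.

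The share of IgG cells as a whole also differed between libraries. IgG cells were 8.96% of bone marrow cells, against 49.0% of splenic B220+2NBDG+ and 34.2% of B220+2NBDG- cells. They were 13.1% of splenic B220-2NBDG+ and 5.71% of B220-2NBDG- cells. Splenic B220-2NBDG- thus had a lower share of IgG cells than bone marrow, with an IgG1 share among them of 6.76%. As a share of all cells, IgG1 was 2.67% (1.73 to 3.91) in bone marrow, 2.84% (1.95 to 3.99) in splenic B220+2NBDG+, 0.818% (0.393 to 1.5) in B220+2NBDG-, 0.783% (0.315 to 1.61) in B220-2NBDG+ and 0.386% (0.125 to 0.898) in B220-2NBDG- cells. On that scale bone marrow and splenic B220+2NBDG+ cells had overlapping intervals, above those of the other 3 libraries. IgG2c made up 25% of IgG cells in bone marrow, against 40.5% to 60.5% in the splenic libraries. IgG3 was 4.76% in bone marrow and 13.2% to 20.3% in the spleen. Without predicted doublets the IgG1 share of bone marrow IgG cells was 25.6%.

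UMIs and genes per cell lay on both sides in the comparison of IgG1 with other IgG cells. In the 3 libraries with at least 10 cells of both classes, the median IgG1 cell held 18794 UMIs in bone marrow, 11485 in splenic B220+2NBDG+ and 11595 in splenic B220+2NBDG-. The median other IgG cell held 17575, 13771 and 10057 UMIs in the same libraries. The differences of medians, IgG1 minus other IgG, averaged 157 ± 2122 UMIs (SD, n = 3 libraries; exact two-sided sign-flip permutation test, p = 1) and 39.2 ± 257 genes (exact p = 0.75). With 3 libraries the smallest p this test can give is 0.25.

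The immunoglobulin share of a cell's UMIs, the closest of these measures to secretory output, moved in different directions. The medians were 57.0% in IgG1 and 61.3% in other IgG cells of bone marrow, 67.9% and 66.3% in splenic B220+2NBDG+, 53.5% and 48.0% in splenic B220+2NBDG-, 56.0% and 61.6% in splenic B220-2NBDG+, and 55.4% and 67.3% in splenic B220-2NBDG- cells. IgG1 cells were thus above other IgG cells in both B220+ libraries and below them in the 3 B220- libraries, of which 2 rest on 7 and 5 IgG1 cells. Over the 3 larger libraries the difference averaged 0.891 ± 4.89 percentage points (exact p = 0.75). The mitochondrial share of non-immunoglobulin UMIs differed by 0.0386 ± 0.398 percentage points (exact p = 1).

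Cell cycle transcripts were found in few IgG1 cells. After thinning each cell to 1000 non-immunoglobulin UMIs, 3 of 78 IgG1 cells (3.85%, 0.800 to 10.8) held at least 3 UMIs of 31 cell cycle genes, against 79 of 1156 other IgG cells (6.83%, 5.45 to 8.44); 1 IgG1 and 10 other IgG cells were too shallow. Without thinning the shares were 7.59% and 14.2%. These shares pool libraries that differ. In the 2 libraries that held such IgG1 cells, 3 cells in all, the order was the other way. In splenic B220+2NBDG- they were 2 of 10 IgG1 cells (20%, 2.52 to 55.6) and 66 of 408 other IgG cells (16.2%, 12.7 to 20.1). In splenic B220+2NBDG+ they were 1 of 31 IgG1 cells (3.23%, 0.0816 to 16.7) and 9 of 515 other IgG cells (1.75%, 0.802 to 3.29). The remaining libraries held 0 such IgG1 cells. Bone marrow had 0 of 25 against 0 of 57 other IgG cells. Splenic B220-2NBDG+ had 0 of 7 against 1 of 109, and B220-2NBDG- had 0 of 5 against 3 of 67 (4.48%). The intervals overlapped in every library, so no direction could be read.

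Transcripts other than immunoglobulin were compared between IgG1 and other IgG cells by summing UMIs per library and class. The fit used edgeR's quasi-likelihood test with the library as a block, the 3 libraries with at least 10 cells of both classes, and 2983 genes. At an adjusted p under 0.05 (Benjamini-Hochberg), 3 genes differed (0.101% of those tested). Apoe and Prg2 were lower in IgG1 cells and Gng5 was higher. DESeq2 on the same sums called 0 genes, with 39 at an unadjusted p under 0.05, so each of the 3 calls rests on the choice of test.

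Prg2, known as the major basic protein of eosinophil granules, was lower in IgG1 cells. It had 963 CPM in IgG1 cells of bone marrow, 1923 in splenic B220+2NBDG+, 272 in B220+2NBDG-, 859 in B220-2NBDG+ and 158 in B220-2NBDG- cells. Other IgG cells had 3634, 1984, 1014, 2008 and 1057 CPM in the same libraries. IgG1 cells were lower in 5 of 5 libraries, although in splenic B220+2NBDG+ the counting intervals overlapped. The log2 fold difference was -1.14 ± 0.22 (SE; edgeR adjusted p = 0.0262), and -1.30 (adjusted p = 5.01e-04) when all 5 libraries entered. Without bone marrow it was -0.70 (adjusted p = 0.479), without splenic B220+2NBDG- cells -0.99 (adjusted p = 0.307), and without splenic B220+2NBDG+ cells -1.98 (adjusted p = 2.94e-24). Without predicted doublets, which left 2 libraries, it was -1.11 (adjusted p = 0.0534). Markers of mast cells and basophils were at 0 UMIs in IgG1 cells and at most 2.52 CPM, in bone marrow, in other IgG cells. No list of eosinophil markers was measured, and the source of Prg2 was not tested.

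Apoe, the lipid carrier apolipoprotein E, was set largely by 1 library. IgG1 cells held 1 Apoe UMI in bone marrow (5.04 CPM), 14 in splenic B220+2NBDG+ (102 CPM), 2 in splenic B220+2NBDG- (32.1 CPM) and 0 in both splenic B220- libraries. Other IgG cells of the libraries in that order had 7.57, 271 and 972 CPM, with 6.39 CPM in splenic B220-2NBDG+ and 27.6 CPM in splenic B220-2NBDG-. In bone marrow and both splenic B220- libraries the levels lay at or under the worth of 3 UMIs in IgG1 cells, so the difference came from the B220+ spleen. In the B220+2NBDG- library 1 of 408 other IgG cells held 363 of the 2318 UMIs. The log2 fold difference was -2.54 ± 0.36 (edgeR adjusted p = 3.38e-04), -1.38 (adjusted p = 0.191) without splenic B220+2NBDG- cells and -1.39 (adjusted p = 0.0976) without predicted doublets. Without predicted doublets splenic B220+2NBDG- held 9 IgG1 cells, under the minimum of 10, so the last 2 fits both lacked that library. Without splenic B220+2NBDG+ cells the Apoe counts were too low to be tested.

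Gng5, a gamma subunit of heterotrimeric G proteins, was the only gene called higher in IgG1 cells. IgG1 cells had 620 CPM in bone marrow, 504 in splenic B220+2NBDG+, 433 in B220+2NBDG-, 336 in B220-2NBDG+ and 435 in B220-2NBDG-. Other IgG cells had 346, 294, 301, 385 and 342 CPM in the same order. IgG1 cells were higher in 4 of 5 libraries, and the counting intervals were apart in bone marrow and splenic B220+2NBDG+. The log2 fold difference was 0.70 ± 0.14 (edgeR adjusted p = 0.0457). It lost the call without any 1 of the 3 libraries, at 0.77 (adjusted p = 0.0549) without splenic B220+2NBDG-, 0.67 (0.179) without splenic B220+2NBDG+ and 0.60 (1) without bone marrow cells.

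**Figure D2:**
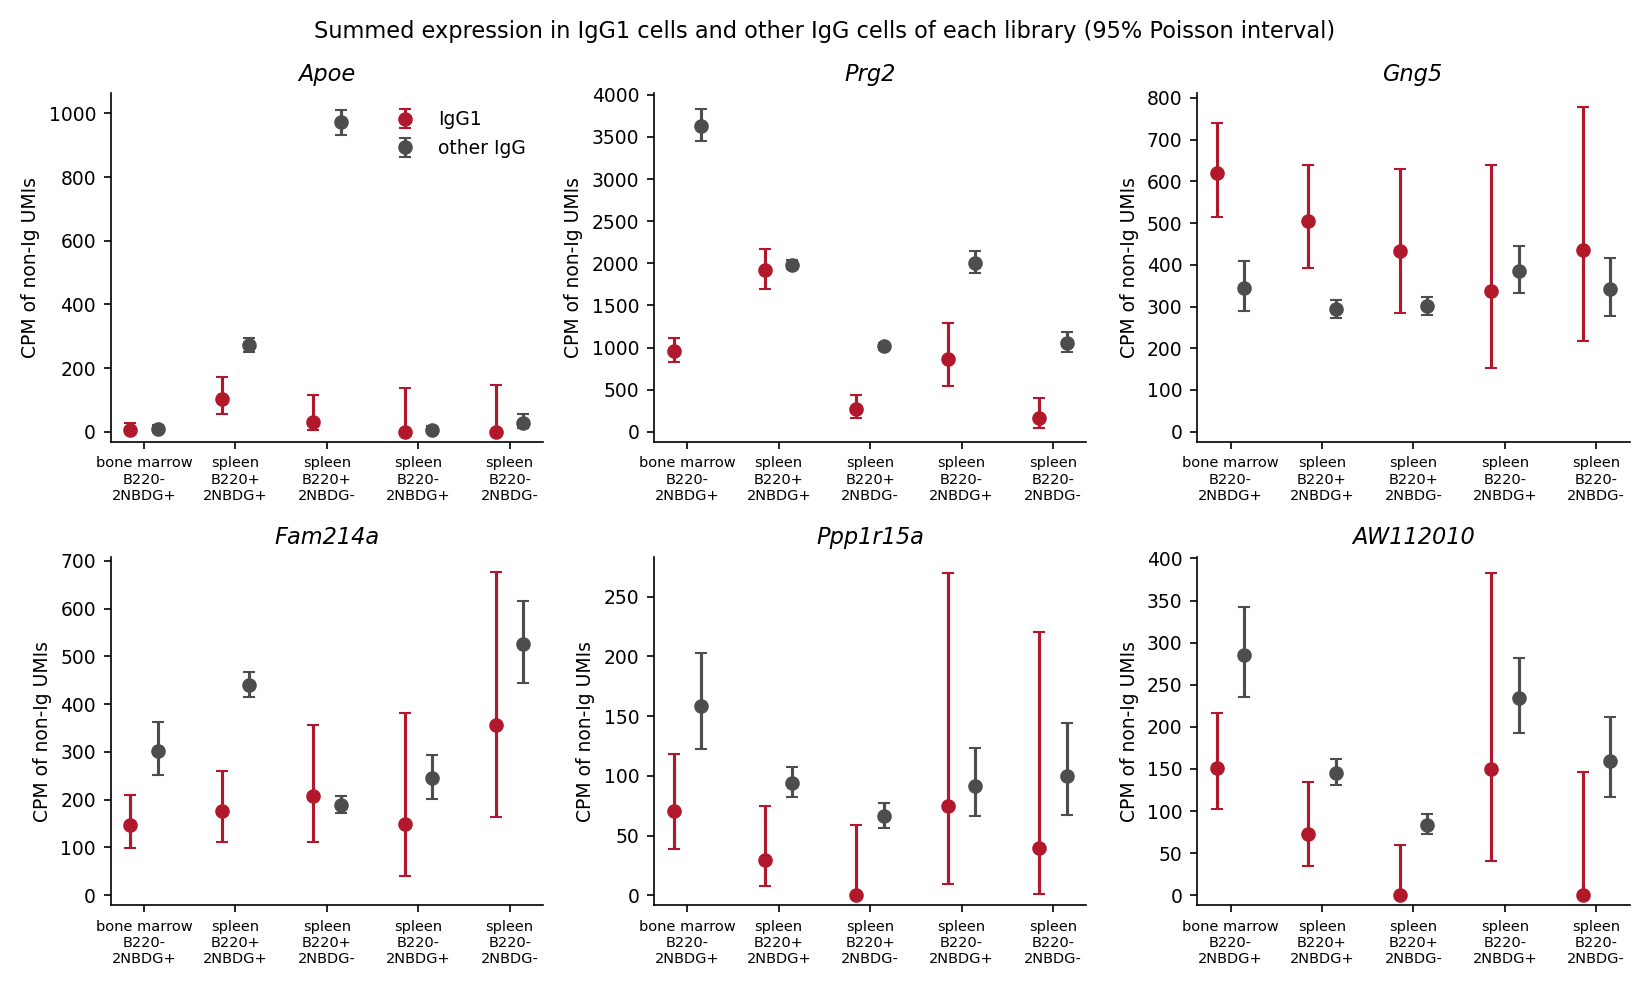
Summed expression (CPM of non-immunoglobulin UMIs, linear axes) in IgG1 cells (red, left) and other IgG cells (grey, right) of each library, with 95% Poisson intervals of the counts. Apoe, Prg2 and Gng5 passed the adjusted threshold; Fam214a, Ppp1r15a and AW112010 had the next smallest p-values on the lower side. Prg2 lies lower in IgG1 cells in 5 of 5 libraries, Gng5 higher in 4 of 5.

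Below the threshold, the genes with the smallest unadjusted p-values are given as values. On the lower side stood Fam214a (log2 fold difference -0.99, edgeR adjusted p = 0.0579) and Ppp1r15a, the subunit that directs a phosphatase to the translation factor eIF2α, at -1.54 (0.0969). Further down were the uncharacterised AW112010 (-1.13) and A430035B10Rik (-0.92), the serine protease inhibitor Serpina3g (-1.48), Cybb (-1.23), a subunit of the phagocyte NADPH oxidase, Jun (-0.56), a component of the AP-1 transcription factor, and Ms4a1 (-1.02), which encodes CD20, with adjusted p of 0.14 to 0.177. Of these 8 genes all but Fam214a were lower in IgG1 cells in 5 of 5 libraries. With all 5 libraries in the fit, 6 genes were called, all lower: Prg2, Fam214a, Ppp1r15a, AW112010, Serpina3g and Ly6k, a choice that rests on libraries with 5 and 7 IgG1 cells.

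On the higher side, Pld4, an endolysosomal nuclease of the phospholipase D family, stood at 0.77 (edgeR adjusted p = 0.14). Ywhaq, a 14-3-3 adaptor protein, was at 0.53, the ER-to-Golgi protein Ergic1 at 0.54, Slc25a5, the mitochondrial ADP/ATP carrier, at 0.38, and Clcn3, an endosomal chloride transporter, at 1.41. Ergic1 was higher in 5 of 5 libraries and Pld4, Ywhaq and Clcn3 in 4 of 5. Crip1, a LIM domain protein, stood at 0.88 but was lower in 3 of 5 libraries, and 119 of its 159 UMIs in splenic B220+2NBDG- IgG1 cells lay in 1 cell. Hist1h2ap (1.04), a histone of a gene family with near-identical copies, was lower in 4 of 5 libraries and had 55 of its 64 UMIs in splenic B220+2NBDG+ IgG1 cells in 1 cell, and Pcna (1.12), the replication clamp, had 7 of 7 UMIs in splenic B220+2NBDG- in 1 cell. 1700021F05Rik stood at 1.83. It was higher in 3 of 5 libraries, as were Pcna and Slc25a5.

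The lists of related genes held 1 of the 3 called genes, Apoe, and are described by counts. Over all 2983 genes tested the median log2 fold difference was -0.01, with 1457 genes above 0 and 1526 below. At an unadjusted p under 0.05 (edgeR), 88 genes were higher (2.95%) and 121 lower (4.06%). MHC class II, the antigen-presentation genes that plasma cells switch off as they mature, had a median of -0.42 over 7 genes, of which 6 lay below 0 and 4 were lower at that unadjusted level. These were Cd74 (-0.30), H2-Ab1 (-0.42), H2-Aa (-0.62) and H2-Eb1 (-0.57), each at an edgeR adjusted p of 0.345 to 0.484. H2-Ab1 had 373 CPM in IgG1 cells of bone marrow, 2332 in splenic B220+2NBDG+, 2099 in B220+2NBDG-, 747 in B220-2NBDG+ and 2296 in B220-2NBDG-, against 335, 3147, 3318, 931 and 1088 CPM in other IgG cells. IgG1 cells were lower in 3 of 5 libraries for H2-Ab1, so the direction was not shared by all. With all 5 libraries in the fit the list's median was -0.25 over 6 genes.

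Immediate early genes, which respond within minutes to stimulation or to cell handling, had a median of -0.41 over 11 genes, 9 of them below 0. Jun, Btg2 (-0.46), Ier2 (-0.59) and Junb (-0.41) were lower at the unadjusted level. The Ly6 family of membrane-anchored proteins had a median of -0.34 with 5 of 5 tested members below 0, led by Ly6k (-1.19, edgeR adjusted p = 0.345). Ly6k had 131, 110, 0, 37.4 and 0 CPM in IgG1 cells of the libraries in the order above and 487, 65.2, 33.5, 424 and 404 CPM in other IgG cells, with 22 of the 26 bone marrow UMIs in 1 IgG1 cell. All 9 type I interferon-induced genes lay below 0 (median -0.20), none of them past the unadjusted level. Ly6a and Ly6e belong to this list and to the Ly6 family, so the 2 counts overlap. By library the direction was not shared by all. Samhd1 was lower in 2 of 5 libraries, Ly6a and Ifitm3 in 3, and Ly6e and Ifi27 in 4. B cell identity genes had a median of -0.19 over 10, with Ms4a1, Fcmr (-2.06), a receptor for IgM, and Ly6d (-0.34) lower at the unadjusted level.

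Genes of the secretory machinery had medians near that of all genes. Unfolded protein response and ER folding genes had a median of 0.00 over 27 genes, with 13 above and 14 below 0. At the unadjusted level Edem1 (0.33) and the chaperone Hsp90b1 (0.28) were higher and Herpud1 (-0.30), Manf (-0.26) and Ero1lb lower. The 34 ER translocation and vesicle transport genes had a median of 0.00 and none passed. Plasma cell regulators had a median of 0.07 over 17 genes. Sdc1, encoding CD138, stood at -0.08 ± 0.16, Xbp1, the transcription factor of the secretory programme, at -0.10 ± 0.10, Irf4, a transcription factor that plasma cells need, at 0.12 ± 0.28, Mzb1, an ER chaperone of B cells, at 0.09 ± 0.12, and Jchain at -0.15 ± 0.09, none past the threshold (edgeR, adjusted p of 0.806 to 0.963). Integrated stress response genes had 13 of 15 below 0 (median -0.16), with Ppp1r15a and Eif4ebp1 (-0.63), a translation repressor, lower at the unadjusted level.

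Genes tied to the switch itself were barely measured. Of 21 genes of the interleukin-4 receptor and STAT6 axis 4 were tested (median -0.31, none past the unadjusted level), and of 25 of the interferon gamma and T-bet axis 9 (median -0.18), with Psmb9 (-0.48), an immunoproteasome subunit, lower at the unadjusted level. Il4ra, the receptor subunit for interleukin-4, had 0 UMIs in 79 IgG1 cells and 8 in 1166 other IgG cells. Tbx21, which encodes T-bet, had 0 and 16 UMIs and Stat6 had 3 and 64. At this depth a difference in these genes was not detectable.

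Survival receptors and homing genes gave medians near 0. BAFF and APRIL receptors and survival genes had a median of 0.12 over 10 genes, with Tnfrsf17, the survival receptor BCMA, at 0.34 ± 0.33, Tnfrsf13b, the receptor TACI, at 0.12 ± 0.19 and the pro-apoptotic Bcl2l11 at 0.77, the last higher at the unadjusted level. Chemokine receptor, homing and adhesion genes had a median of 0.00 over 11, with Klf2, a transcription factor of lymphocyte trafficking, lower at the unadjusted level (-1.03). Cxcr3 stood at 0.21 ± 0.29 and the integrin Itgb7 at 0.41 ± 0.34. The inhibitory receptor gene Fcgr2b, which binds IgG, stood at -0.57 ± 0.40. Inhibitory and Fc receptors had a median of -0.29 over 5 genes, germinal centre and memory genes -0.35 over 4, and B-1 cell genes 0.00 over 4.

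Glycolysis and glucose uptake genes had a median of -0.01 over 15, or -0.24 over 13 with all 5 libraries in the fit (-0.02 over all genes), with Pkm (-0.45) and Gpi1 (-0.95), both glycolytic enzymes, lower and Mpc2 (0.35), a mitochondrial pyruvate carrier, higher at the unadjusted level. Slc3a2, the shared chain of amino acid transporters, stood at -0.20 ± 0.13. Ribosomal protein genes had a median of 0.07 over 24 and mitochondrially encoded genes -0.03 over 12, none past the unadjusted level. Cell cycle genes had a median of 0.31 over 9, with Pcna higher at the unadjusted level. Only 3 IgG1 cells held enough cell cycle UMIs after thinning, and with all 5 libraries in the fit 1 gene of this list was tested. The list of genes that marked libraries in earlier results, among them Slpi (-0.12 ± 0.11) and Mt2 (-0.23 ± 0.30), had a median of -0.12 over 11, with Apoe called and Serpina3g lower at the unadjusted level.

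**Figure D3:**
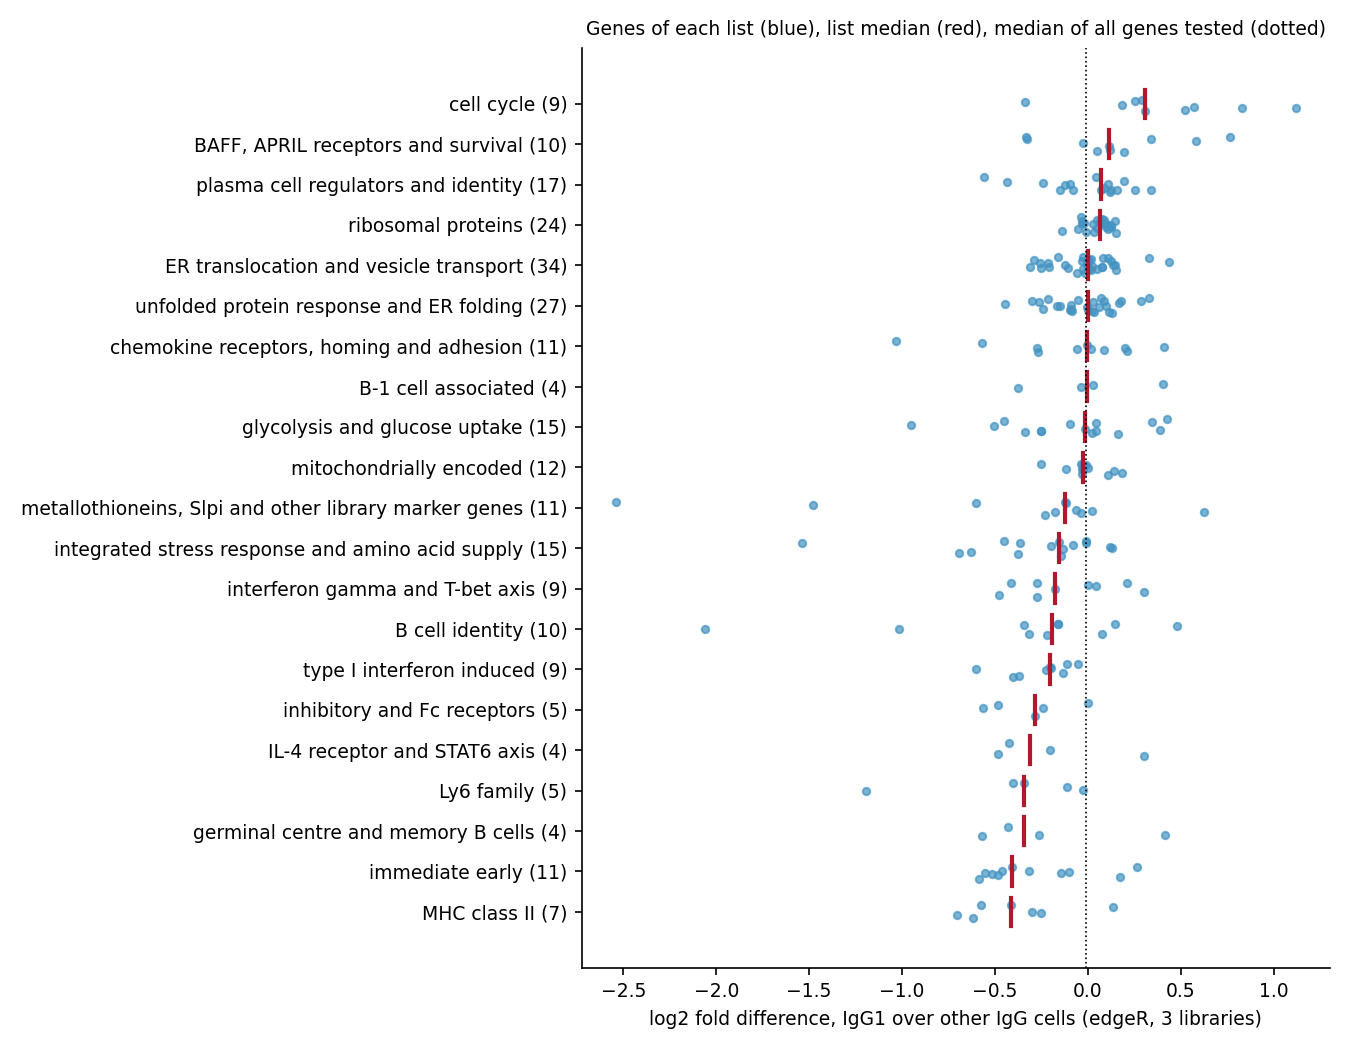
Log2 fold difference, IgG1 over other IgG cells, of each gene (blue points) in each list, with the list median (red) and the median of all genes tested (dotted); numbers of genes tested stand in parentheses. MHC class II and immediate early genes have the lowest medians (-0.42 and -0.41) and cell cycle genes the highest (0.31); Apoe at -2.54 is the lowest point.

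IgG1 cells were next set against each other subclass in a fit of 2923 genes with the library as a block. Sums of fewer than 10 cells were left out, so the 4 IgG3 cells of bone marrow did not enter, nor did the 7 and 5 IgG1 cells of splenic B220-2NBDG+ and B220-2NBDG-. Both classes of a contrast were thus present in 3 libraries for IgG2b and IgG2c, and in 2 for IgG3, splenic B220+2NBDG+ and B220+2NBDG-. Against IgG2c cells 3 genes differed (0.103%), against IgG2b cells 2 (0.0684%) and against IgG3 cells 9 (0.308%). The 3 contrasts share the IgG1 cells and are not independent. Leaving out 1 library moved each count. The 9 against IgG3 became 2 without bone marrow, 3 without splenic B220+2NBDG+, 5 without B220+2NBDG-, 4 without B220-2NBDG+ and 6 without B220-2NBDG-. They became 0 (144 at an unadjusted p under 0.05, edgeR) when every class was called at 90% in place of 70%. That call cut the IgG cells of splenic B220+2NBDG+ from 552 to 214. The 3 against IgG2c became 0 without splenic B220-2NBDG+ (210 unadjusted), 1 without bone marrow or B220-2NBDG-, 2 without B220+2NBDG- and 6 without B220+2NBDG+. The 2 against IgG2b became 8 without splenic B220+2NBDG+ and 6 without B220+2NBDG-.

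Against IgG3 cells, IgG1 cells were higher for 6 genes and lower for 3. Slpi, a secreted inhibitor of leukocyte proteases, rose by 1.24 ± 0.20 log2 (edgeR adjusted p = 0.00131). It had 48965 CPM in IgG1 and 14632 CPM in IgG3 cells of splenic B220+2NBDG+, 16186 and 13060 in B220+2NBDG-, 42842 and 8647 in B220-2NBDG+, 33769 and 11845 in B220-2NBDG- and 104661 and 5269 in bone marrow. IgG1 cells were higher in 5 of 5 libraries, of which 2 entered the fit with both classes, and in splenic B220-2NBDG+ and B220-2NBDG- cells 959 of 1147 and 815 of 853 UMIs lay in 1 IgG1 cell. Slpi did not separate IgG1 from IgG2b (0.22) or IgG2c cells (-0.60; edgeR adjusted p = 0.393).

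Vpreb3, a protein of the B cell receptor assembly pathway, was higher in IgG1 than in IgG3 cells by 1.62 ± 0.30 log2 (edgeR adjusted p = 0.0075). It had 217 CPM in IgG1 cells of bone marrow, 219 in splenic B220+2NBDG+, 192 in B220+2NBDG-, 224 in B220-2NBDG+ and 79.2 in B220-2NBDG-, against 94.1, 45.5, 93.7, 28.8 and 31.7 CPM in IgG3 cells. IgG1 cells were higher in each of the 5 libraries, with 2 to 29 UMIs in the IgG3 sums. The IgG1 sums held 43, 30, 12, 6 and 2 UMIs in the same order. In splenic B220-2NBDG- both classes held 2 UMIs, under the 3 UMIs worth 119 CPM in IgG1 cells, so no direction could be read there. Without splenic B220+2NBDG+, Slpi stood at 0.92 (edgeR adjusted p = 0.0705) and Vpreb3 at 1.20 (0.343). Gng5 (0.85), Chchd10 (0.88) and Cox7c (0.56), both mitochondrial proteins, and Ywhaq (0.83) were also higher. Hepacam2 (-1.67), Grn (-0.93), the secreted growth factor progranulin, and Rnf187 (-0.79) were lower. Against IgG2b and IgG2c cells Vpreb3 stood at 0.23 and 0.30, Chchd10 at 0.23 and 0.33 and Grn at -0.34 and -0.33. Rnf187 stood at -0.17 and -0.27 and Hepacam2 at -0.89 and -0.92, none of them past the adjusted threshold. Ywhaq stood at 0.56 and 0.48 and Gng5 at 0.67 and 0.73. Each of these differences was thus smaller than against IgG3 cells. Each of the 9 genes lost its call without at least 1 library, all but Ywhaq without splenic B220+2NBDG+, and Rnf187 and Cox7c without any 1 of the 5. Hepacam2, a cell adhesion protein of the immunoglobulin superfamily, had 58.5 and 231 CPM in IgG1 and IgG3 cells of splenic B220+2NBDG+ and 112 and 181 CPM in B220+2NBDG-.

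Against IgG2c cells, which were the most numerous, Prg2 was lower (-1.15 ± 0.22; edgeR adjusted p = 0.0294) and Pld4 (0.98) and Gng5 (0.73) were higher. Prg2 stood at -0.60 (adjusted p = 0.688) without bone marrow and -2.0 (adjusted p = 1.51e-09) without splenic B220+2NBDG+. Pld4 lost its call without any 1 of the 5 libraries (adjusted p of 0.0543 to 0.291), and Gng5 without any but splenic B220+2NBDG-. Pld4 had 197, 322, 272, 261 and 158 CPM in IgG1 cells of the libraries in the order above and 130, 167, 118, 82.6 and 165 CPM in IgG2c cells, higher in 4 of 5. Against IgG3 cells Pld4 stood at -0.12. Against IgG2b cells Apoe was lower (-3.54 ± 0.40; edgeR adjusted p = 9.39e-07) and Crip1 higher (1.35 ± 0.23). Crip1 stood at 0.49 (adjusted p = 0.612) without splenic B220+2NBDG- and at 0.48 (adjusted p = 0.675) without cycling cells. Leaving out cycling cells left 8 IgG1 cells in splenic B220+2NBDG-, under the minimum of 10. Both fits therefore lacked the IgG1 sum of that library, and an effect of cycling cells alone was not tested. Apoe kept its call without any 1 library, at -1.94 without splenic B220+2NBDG- and -5.54 without splenic B220+2NBDG+. Apoe in IgG2b cells stood at 2346 CPM in splenic B220+2NBDG- and 416 CPM in B220+2NBDG+, against 32.1 and 102 CPM in IgG1 cells.

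Between libraries, the IgG1 cells themselves differed most in the genes that follow, several of them on few UMIs. Whether other cells of the libraries differed in the same genes was not part of this ranking. Among 3527 genes with at least 50 CPM in 1 library, the ratio of the highest to the lowest library was largest for H2-Eb1, at 15.1 CPM in bone marrow, 614 in splenic B220+2NBDG+, 881 in B220+2NBDG-, 187 in B220-2NBDG+ and 1267 in B220-2NBDG- cells. Ly6c2, a membrane-anchored protein of plasma cells and monocytes with a near-identical neighbour Ly6c1, had 8197, 1769, 449, 6574 and 119 CPM in the same order. IgG1 cells of B220-2NBDG+ libraries were thus high for Ly6c2 in both tissues. Ltb, a cytokine of the tumour necrosis factor family, had 0, 58.5, 96.2, 0 and 633 CPM, the last from 16 UMIs. The cycling genes Ube2c, Hmgb2 and Rrm2 peaked in splenic B220+2NBDG-, at 513, 577 and 353 CPM (32, 36 and 22 UMIs). In that library 2 of 10 IgG1 cells held at least 3 cell cycle UMIs after thinning. Gm15013 peaked there too, at 609 CPM (38 UMIs). Hist1h2ap peaked in splenic B220+2NBDG+ at 468 CPM, with most of its 64 UMIs in 1 cell.

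The only pair of libraries with at least 20 IgG1 cells each was bone marrow B220-2NBDG+ and splenic B220+2NBDG+. It was chosen after the cell numbers were seen, and in it tissue and B220 cannot be told apart. A gene was used when 1 of both libraries gave it 50 UMIs or more and 25 CPM or more. Of 444 such genes 24 were at least 2-fold higher in bone marrow IgG1 cells (5.41%) and 32 at least 2-fold lower (7.21%). No test was made, and intervals of ratios are exact conditional binomial ones. In other IgG cells of the same 2 libraries 12 of the 24 and 22 of the 32 were also past 2-fold in that direction, and 1 and 0 went the other way. The share of all 444 genes past 2-fold in other IgG cells is not given here. Without it these overlaps cannot be read as particular to the genes concerned.

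Higher in bone marrow IgG1 cells were the metal-binding metallothioneins Mt1, at 933 CPM in bone marrow and 58.5 CPM in spleen (15.9-fold, 7.93 to 37.5), and Mt2, at 292 and 43.9 CPM (6.67-fold, 2.88 to 18.9). Ly6c2 was 4.63-fold higher (4.05 to 5.33). The interferon receptor chain Ifnar2 (4.21-fold), the ubiquitin ligase Ubr3 (3.82-fold) and transferrin (Trf, 3.77-fold) followed. So did the glucocorticoid-activating enzyme Hsd11b1 (3.51-fold) and the disulfide isomerase Txndc5 (2.93-fold). In other IgG cells the ratio was 10.5 for Mt1, 18.7 for Mt2 and 6.30 for Ly6c2, so Mt2 and Ly6c2 rose more there. For Ifnar2, Ubr3, Trf and Txndc5 it was lower than in IgG1 cells, at 2.25, 2.08, 2.29 and 1.85. Hsd11b1 had 308 CPM in bone marrow and 87.7 CPM in spleen IgG1 cells, against 156 and 118 CPM in other IgG cells, where its ratio was 1.33. Ly6d, Ly6e, Tmem176a, Tmem176b and Slpi were also past 2-fold, as were Sdc1 and Tnfrsf13b. Of the 9 plasma cell regulators measured, those 2 were higher and 3 were lower (Eaf2, an elongation factor partner, Sub1, a transcriptional coactivator, and Mzb1), with a median log2 ratio of -0.12. Mzb1 had 3957 CPM in bone marrow and 10776 CPM in spleen.

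Lower in bone marrow IgG1 cells were 3 of 4 measured MHC class II genes. H2-Eb1 had 15.1 CPM in bone marrow and 614 CPM in spleen, a ratio of 0.0246 (0.00498 to 0.0745), H2-Aa 40.3 and 570 CPM, and H2-Ab1 373 and 2332 CPM. In other IgG cells H2-Eb1 had 119 and 812 CPM, H2-Aa 27.7 and 708 CPM, and H2-Ab1 335 and 3147 CPM. H2-Eb1 thus fell more in IgG1 cells (40.6-fold against 6.85-fold), on 3 UMIs in bone marrow. H2-Aa (14.1-fold against 25.5-fold) and H2-Ab1 (6.25-fold against 9.38-fold) fell less in IgG1 cells. Tmsb4x, an actin-binding protein, had 151 and 1053 CPM in IgG1 cells, and H2-Q7, a class I gene with close copies among which reads can be split, 80.7 and 366 CPM. Hist1h2ap had 5.04 and 468 CPM, with most of the splenic UMIs in 1 cell, and Crip1 166 and 548 CPM.

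Of 23 unfolded protein response and ER folding genes measured, 10 were at least 2-fold lower in bone marrow IgG1 cells and 1, Txndc5, higher, with a median log2 ratio of -0.70. The lower ones included the chaperones Hsp90b1 (2137 CPM in bone marrow and 7150 CPM in spleen), Hspa5 (1119 and 2844 CPM) and Calr (313 and 921 CPM) and the disulfide isomerases Pdia3 (348 and 1038 CPM) and Pdia4 (1049 and 2595 CPM). Other IgG cells had 9 of the 23 at least 2-fold lower and a median of -0.91, again without their share over all genes beside it. Ribosomal protein genes stood at 0.42 with 0 of 24 past 2-fold. With all UMIs as the total in place of non-immunoglobulin UMIs, the median log2 ratio of all genes was 0.28 in place of -0.02, and 43 genes were higher and 20 lower.

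The light chain of all 79 IgG1 cells was kappa, against 1140 kappa and 18 lambda calls among 1166 other IgG cells. With 79 cells, 0 lambda calls allow a share of up to 3.80% (3 counts of the total). A kappa variable gene, taken as the one with at least 3 UMIs and at least 50% of a cell's Igkv UMIs, was assigned in 66 IgG1 cells, which used 29 genes. A heavy chain variable gene could be assigned in 11 cells only.

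Igkv5-39 was the kappa gene most often assigned to IgG1 cells, in 14 of 66 (21.2%, 12.1 to 33.0), against 43 of 1028 other IgG cells (4.18%, 3.04 to 5.59). It is given as a description, since it was singled out after the assignments were counted. By library it was found in 0 of 21 IgG1 cells of bone marrow, 8 of 25 of splenic B220+2NBDG+, 1 of 8 of B220+2NBDG-, 3 of 7 of B220-2NBDG+ and 2 of 5 of B220-2NBDG- cells. In other IgG cells it was found in 0 of 57, 24 of 479, 9 of 332, 9 of 99 and 1 of 61. The IgG1 share was thus the higher one in each of the 4 splenic libraries, and the intervals were apart in splenic B220+2NBDG+, at 32.0% (14.9 to 53.5) and 5.01% (3.24 to 7.36). The 0 of 21 in bone marrow allows a share of up to 14.3%.

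The germline V exon of Igkv5-39, shown because it carries this assignment, lies on the minus strand at chr6:69900424-69900710 (GRCm38, GENCODE M21). Capitals mark its in-frame cysteine codons.
Igkv5-39: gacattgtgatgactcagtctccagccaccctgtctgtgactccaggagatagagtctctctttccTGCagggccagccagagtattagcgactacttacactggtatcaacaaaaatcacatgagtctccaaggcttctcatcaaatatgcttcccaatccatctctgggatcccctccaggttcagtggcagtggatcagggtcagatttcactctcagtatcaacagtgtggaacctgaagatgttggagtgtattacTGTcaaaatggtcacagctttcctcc
Its closest relatives among 133 other kappa variable transcripts were Igkv5-45 and Igkv5-43, at 91.6% and 91.3% identity without gaps. Reads of 1 could be assigned to another, and somatic mutation was not measured.

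The assignment was not specific to IgG1. IgM cells carried Igkv5-39 in 93 of 277 bone marrow cells (33.6%) and in 6.50% to 18.6% of cells in the splenic libraries, and IgG3 cells in 17 of 144 (11.8%), whereas IgG2c cells carried it in 8 of 582 (1.37%). The 14 IgG1 cells held 27 to 611 Igkv5-39 UMIs, while the 95th percentile of cells assigned to another gene or to none was 3 to 23 UMIs in the 4 splenic libraries. The assignment itself rests on these UMIs, and in splenic B220+2NBDG+ the lowest of the 8 cells held 33 against a 95th percentile of 23. The next most frequent genes in IgG1 cells were Igkv10-96, in 5 cells of which 4 lay in bone marrow, Igkv6-15, in 4 bone marrow cells, and Igkv1-110, in 4 cells of 3 libraries. Mice were pooled and heavy chains seldom assigned, so cells of 1 clone cannot be told apart from separate cells that use the same gene. Ighv1-39 was assigned in 5 splenic B220+2NBDG+ IgG1 cells and in 9 of 104 other IgG cells there with a heavy chain assignment, and 2 of the 5 paired it with Igkv3-4.

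**Figure D4:**
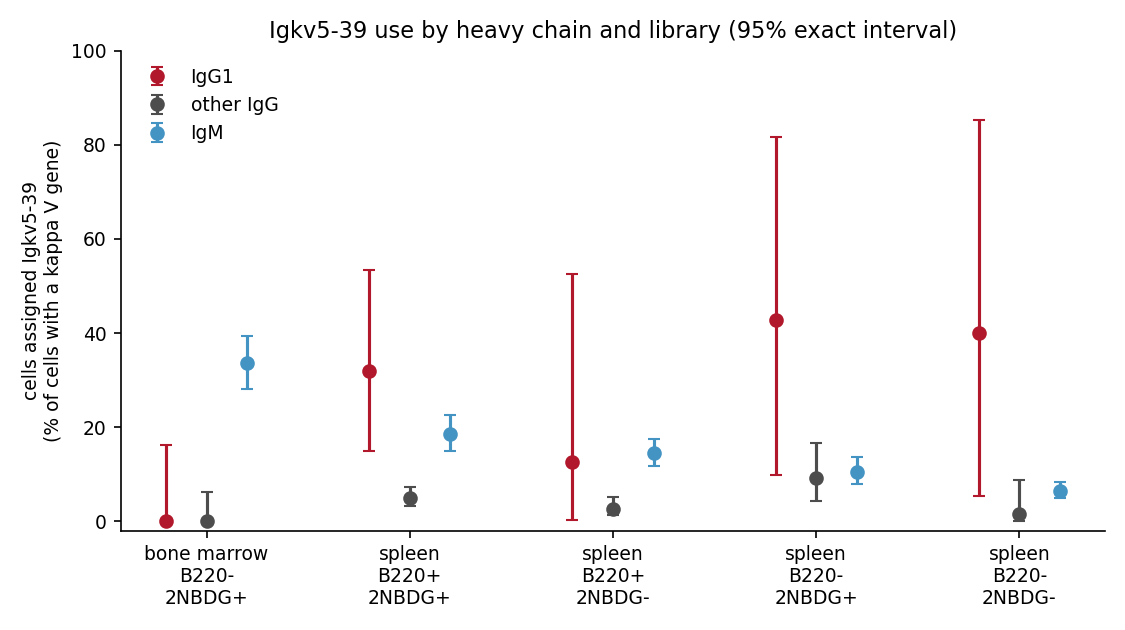
Percentage of cells assigned Igkv5-39 among cells with a kappa variable gene, for IgG1 (red), other IgG (grey) and IgM cells (blue) of each library, with 95% exact binomial intervals. IgG1 lies above other IgG in the 4 splenic libraries and at 0 of 21 in bone marrow, where IgM is at 33.6%.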

How the data were processed

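The deposited tables hold raw UMI counts per gene and cell from 10x Genomics 3′ version 2 libraries, made by the authors with Cell Ranger 2.1 and GRCm38, per the submitters' processing notes; the annotation used for counting and the barcode filter were not given in the sources used here. All 5476 barcodes passed 500 UMIs, 200 genes and under 10% mitochondrial UMIs. Of 33456 gene IDs, 32739 matched GENCODE M21, which gave symbols, coordinates and 266 immunoglobulin genes; these genes were left out of tests and totals.

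UMIs were summed per library and class and tested with edgeR 4.0.16 (R 4.3.3; TMM, filterByExpr, quasi-likelihood, library as block, Benjamini-Hochberg). IgG1 and other IgG sums of a library share its mice, sort and lane, which is where the pairing comes from. DESeq2 1.42.0 was an alternative. Scrublet ran per library in scanpy 1.11.5. The calculation was tested on simulated data.

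Members and lists were chosen with earlier results of these data known. Named genes were up to 15 per direction past the threshold, the 10 smallest unadjusted p-values per direction, up to 5 per direction in each subclass contrast, 8 per direction for bone marrow against spleen, and a set of 37, of which 24 were tested and 1 (Apoe) passed.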

Additional observations from a re-analysis of the deposited data

Results flagged for a closer look

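The immunoglobulin share of UMIs differed between IgG1 and other IgG cells in opposite directions by B220. The median of IgG1 cells minus that of other IgG cells averaged 3.48 percentage points over the 2 B220+ libraries and -7.30 over the 3 B220- libraries, with every library of each kind on its side. The difference between the 2 kinds was not tested, and 2 of the B220- libraries hold 7 and 5 IgG1 cells.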

How the results depend on the processing

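The IgG1 share of IgG cells stayed within its interval in each library under all 6 alternatives. Of these, asking for 20 heavy chain UMIs in place of 10 changed no count. The 3 genes called between IgG1 and other IgG cells became 0 with DESeq2 (39 at an unadjusted p under 0.05) and 0 with no replicate block (66 unadjusted), where the pairing by library is dropped. They became 13 with no filter on low counts (median of all genes -0.37), 19 at 90% dominance, 16 without cycling cells and 5 without predicted doublets (both with 2 libraries left), and 6 with libraries of at least 3 IgG1 cells. Leaving out 1 library gave 2 to 10. The cause was not tested. Calls against IgG2c, IgG2b and IgG3 cells, 3, 2 and 9, were 31, 15 and 17 with no filter (medians of all genes -0.27, -0.15 and -0.04), 6, 6 and 0 at 90% dominance (144 unadjusted for the last), 0, 1 and 4 without cycling cells (202 unadjusted for the first), and 0, 0 and 0 with no replicate block (109, 117 and 167 unadjusted). Without cycling cells the IgG1 sum of splenic B220+2NBDG- fell under 10 cells and left these fits. Only splenic B220+2NBDG+ then held both IgG1 and IgG3 sums. DESeq2 gave 0, 0 and 9 (128, 154 and 171 unadjusted). Leaving out 1 library gave 0 to 6, 2 to 8 and 2 to 6. Gene by gene, Prg2 passed in 12 of 17 alternatives, Apoe in 11 of 15 and Gng5 in 8 of 17, in the same direction in each. These counts include alternatives that changed little or nothing. Asking for 20 heavy chain UMIs in place of 10 repeated the main values exactly, so its passes were fixed in advance. Leaving out cells with T cell UMIs or with shared barcodes removed no IgG1 cell. Apoe could not be tested without splenic B220+2NBDG+ cells or with all 5 libraries.

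Per-cell differences changed sign. Total UMIs (157) were -956 without cycling cells, -976 without doublets and -534 to 1379 without 1 library. Without cycling cells and without doublets splenic B220+2NBDG- held 8 and 9 IgG1 cells, under the minimum of 10. That library thus dropped out of every measure in both settings. Leaving it out alone gave the -534, so an effect of cycling cells or doublets themselves was not tested. The immunoglobulin share (0.891) was -1.23 without cycling cells, -0.229 by means and -1.38 to 3.48 without 1 library, with -1.38 when splenic B220+2NBDG- was left out. Without 1 library, genes ranged from -69.2 to 181, non-immunoglobulin UMIs from -56.2 to 1594 and the mitochondrial share (0.0386) from -0.190 to 0.173; that share was 0.240 without doublets, 0.196 at 90% dominance and 0.176 without cycling cells. Bone marrow against splenic B220+2NBDG+, 24 higher and 32 lower, gave 43 and 20 with all UMIs as total, 12 and 20 at 90% dominance, and 53 and 97 at 10 CPM and 20 UMIs; the planned pairs that differ in 1 gate or tissue gave no value, as none had 20 IgG1 cells in both. Depth limits all of this: 79 cells, of which 12 lie in libraries left out of the main test.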
